A study of Homo sapiens with 22 samples.

Results

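The genes described here are 9 transcription factors of the mesenchymal state, PRRX1, TWIST1, TWIST2, SNAI1, SNAI2, ZEB1, ZEB2, SIX4 and TBX18. They were taken by symbol from a table of raw RNA-seq counts with 35237 gene rows, in which all 9 were found. RNA came from 22 libraries of the human neuroblastoma lines SK-N-AS and GIMEN, both established in culture and both labelled mesenchymal. Neuroblastoma is a tumour of the developing sympathetic nervous system. Both lines were exposed to PP121, an inhibitor of tyrosine kinases and phosphoinositide kinases, and to bufalin, a cardiac glycoside that blocks the sodium pump.

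Untreated SK-N-AS cells grew in DMEM with 10% serum (4 libraries). The S1D4 group received 5 µM PP121 in DMEM with 1% serum for 4 days (4 libraries). S1D4 cells were then moved to serum-free Neurobasal medium with B27 supplement, 5 µM PP121 and 100 nM bufalin, and were collected after a further 4 days (S2D4, 4 libraries) or 30 days (S2D30, 4 libraries). GIMEN cells grew untreated in RPMI with 10% serum (3 libraries) or received 2.5 µM PP121 and 10 nM bufalin together in RPMI with 1% serum for 30 days (D30, 3 libraries). PP121 and lower serum came together in S1D4, and bufalin, the new medium, the loss of serum and further time came together in S2D4, so their parts in a change cannot be told apart. In GIMEN both drugs and lower serum came together. S2D4 and S2D30 had the same drugs and medium and differed in time. The doses, media and schedule also differed between the lines and cannot be told apart from the line. The labels number the replicates and do not say whether they were separate cultures, so the p-values measure the spread between these libraries, which may be technical.

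SNAI1 and SNAI2 are zinc-finger repressors, ZEB1 and ZEB2 are larger repressors with zinc fingers and a homeodomain, and TWIST1 and TWIST2 are basic helix-loop-helix proteins. All 6 are known for driving epithelial-mesenchymal transition, in which cells lose junctions and become motile, and they bind E-box sequences in the control regions of their targets. PRRX1 is a paired-type homeodomain factor that can shift neuroblastoma cells from the adrenergic, sympathetic-like state to the mesenchymal state. SIX4 is a homeodomain factor of muscle and sensory development, and TBX18 is a T-box factor of the heart and of the mesenchyme around the ureter.

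The promoters of 3 members are printed because their transcripts show the contrast that runs through these data: TWIST2 and ZEB2 changed widely in SK-N-AS while ZEB1, the close relative of ZEB2, moved little there. Each window runs from 250 bases before to 50 bases after an annotated start in RefSeq, build GRCh38.p14, read 5′ to 3′ on the gene's strand. The TWIST2 window is chr2:238847835-238848134 on the plus strand, the ZEB2 window is chr2:144520070-144520369 on the minus strand, and the ZEB1 window, 1 of 7 for that gene, is chr10:31318966-31319265 on the plus strand. Capitals mark the E-box CAGGTG, the motif to which ZEB and SNAI proteins bind, or its reverse complement CACCTG.
TWIST2: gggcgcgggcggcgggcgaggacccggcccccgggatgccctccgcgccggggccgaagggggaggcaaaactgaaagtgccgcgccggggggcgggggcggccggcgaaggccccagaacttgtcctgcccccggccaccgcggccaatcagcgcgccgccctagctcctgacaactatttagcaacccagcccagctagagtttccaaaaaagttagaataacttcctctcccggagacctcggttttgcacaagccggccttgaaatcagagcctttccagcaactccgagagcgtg
ZEB2: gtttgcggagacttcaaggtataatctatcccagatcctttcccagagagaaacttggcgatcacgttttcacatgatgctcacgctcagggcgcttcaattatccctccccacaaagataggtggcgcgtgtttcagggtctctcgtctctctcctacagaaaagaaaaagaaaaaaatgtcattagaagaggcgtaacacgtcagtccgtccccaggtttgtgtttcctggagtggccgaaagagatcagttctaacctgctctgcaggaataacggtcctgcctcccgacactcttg
ZEB1: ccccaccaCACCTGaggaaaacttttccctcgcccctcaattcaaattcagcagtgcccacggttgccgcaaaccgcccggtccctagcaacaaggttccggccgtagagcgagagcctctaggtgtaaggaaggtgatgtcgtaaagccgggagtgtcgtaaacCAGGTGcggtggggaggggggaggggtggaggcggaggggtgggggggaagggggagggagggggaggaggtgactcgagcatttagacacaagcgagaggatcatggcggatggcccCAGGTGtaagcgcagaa
The ZEB1 window, the one with the most E-boxes among its 7, held 3, while the TWIST2 and ZEB2 windows held none and those genes had no other window. Among all 35116 windows of this length in the RefSeq table, 20.6% held at least 1 and 0.635% held at least 3. Of the 9 members, 6 had a window in the table, 12 windows in all. Windows of PRRX1, TBX18 and SIX4 held no CAGGTG, and of the other 6 windows of ZEB1 1 held 1. The AP-1 motif TGANTCA, found in 7.71% of all windows, was in none of the 12, and the TEAD motif GGAATG, found in 14% of all windows, was in 1 window of ZEB1, with both strands searched for each motif. A match describes letters and is not a measured binding site, and a link of these motifs to the changes in level was not tested.

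Total counts per library ran from 16456484 to 37506800. Levels are given in CPM (counts scaled to a library of fixed size), scaled over all 22 libraries, and each library had at least 1 count of every member except SNAI1 in GIMEN D30. The label of the lines was checked against marker genes. Untreated GIMEN expressed the mesenchymal markers PRRX1, FN1, VIM, SNAI2, CD44 and YAP1 at a summed 38604 to 39771 CPM. Most of this sum was FN1, at a mean of 32080 CPM, and PRRX1 and SNAI2 are themselves members. TH, an enzyme of catecholamine synthesis and an adrenergic marker, had 0 counts in untreated GIMEN. Untreated SK-N-AS had 810 to 1425 CPM of the mesenchymal markers, mostly VIM at a mean of 956 CPM, and each marker was lower than in untreated GIMEN. The 9 adrenergic markers of untreated SK-N-AS summed to 1137 to 1301 CPM, beside 465 to 480 CPM in untreated GIMEN. They included DBH, another such enzyme, at 77.5 CPM and TH at 0.269 CPM. All 9 were above the floor of 3 counts in at least 1 library, as they also were in S2D30, while 3 of the 9 were at the floor in untreated GIMEN. The higher adrenergic sum in untreated SK-N-AS, rather than passing this floor, goes against the label. In S2D30 the adrenergic sum was 202 to 247 CPM. PTPRC, a white blood cell gene, went from 179 CPM in untreated SK-N-AS to 0.832 CPM in S2D30, while CD3E had 0 counts in every SK-N-AS library, and 4 Schwann and glial markers stayed at or below 7.24 CPM in sum. What these marker genes have to do with the changes below was not tested. The epithelial markers CDH1 and EPCAM together stayed at or below 1.36 CPM in every library.

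Replicate 4 of S2D4 stood apart from the other 3 libraries of its group, with correlations of log2 CPM of 0.987 to 0.988 against 0.994 among those 3. Its mesenchymal marker sum was 2317 CPM where the other 3 had 4225 to 4534, and its adrenergic sum was 848 CPM where they had 565 to 612. Results in which S2D4 takes part include this library unless stated, and several are also given without it.

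Per kilobase of transcript, which allows genes to be compared with each other, TWIST1 was the most abundant member in untreated SK-N-AS at 66.0 ± 6.67 CPM per kb (SD, n = 4). SNAI1 followed at 13.8 ± 3.45 (SD, n = 4), and SIX4 was lowest at 0.147 ± 0.0408 CPM per kb (SD, n = 4). In S2D4 the first place went to TWIST2 at 97.5 ± 17.0 CPM per kb (SD, n = 4), ahead of PRRX1 at 46.8 ± 13.8 (SD, n = 4) and TWIST1 at 34.5 ± 5.19 (SD, n = 4). In S2D30 TWIST1 was again first at 50.1 ± 7.15 CPM per kb, followed by TWIST2 at 27.5 ± 4.69 and ZEB2 at 20.6 ± 1.29 (SD, n = 4 each). In untreated GIMEN the order was TWIST1 at 45.4 ± 0.733, PRRX1 at 42.7 ± 1.03 and SNAI2 at 36.8 ± 1.56 CPM per kb, and SNAI1 was last at 1.94 ± 0.353 (SD, n = 3 each). After 30 days of treatment ZEB1 led in GIMEN at 31.7 ± 3.08 CPM per kb, with TWIST1 at 29.6 ± 2.39 and PRRX1 at 26.3 ± 10.6 (SD, n = 3 each), a spread that does not separate these 3.

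**Figure D1:**
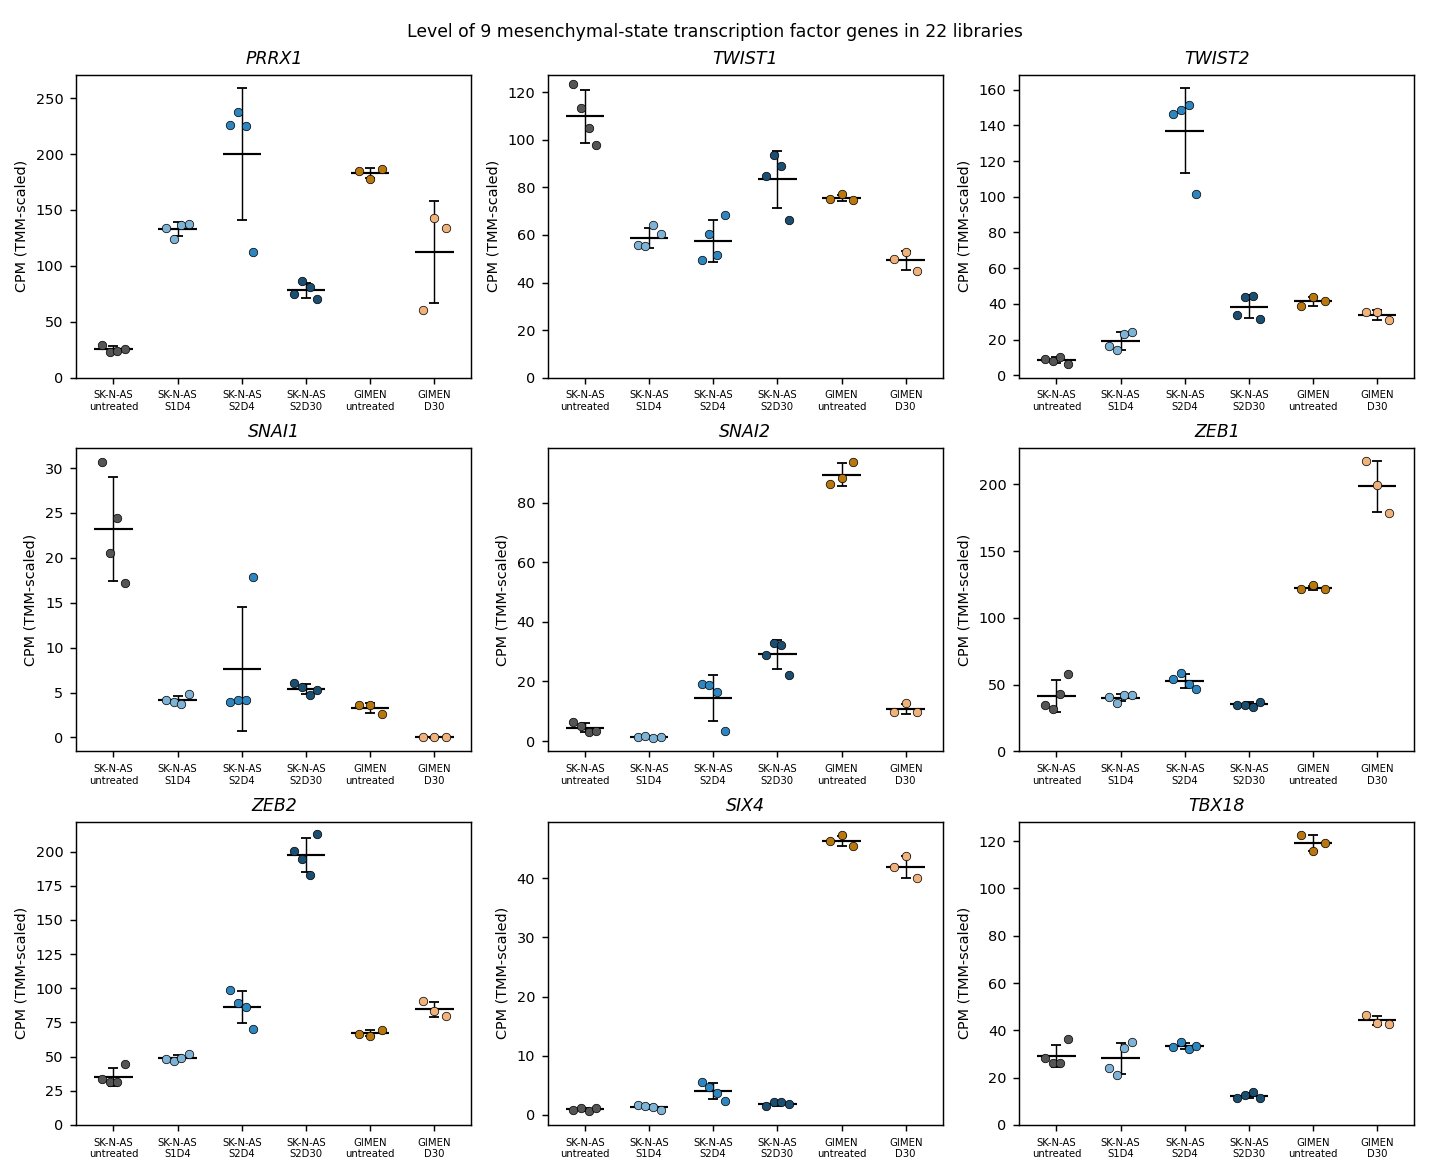
Level of each of the 9 factors (vertical axis, CPM, linear from 0) in every library of the 6 groups (horizontal axis), each point a library, each thick line a group mean and each bar the SD. PRRX1 and TWIST2 peak in S2D4, ZEB2 in S2D30, and SIX4 stays between 0.632 and 5.55 CPM in SK-N-AS but between 40.1 and 47.2 CPM in GIMEN.

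PRRX1, the homeodomain factor tied to the mesenchymal state, was higher than in untreated cells at each SK-N-AS stage and fell in GIMEN. Its level in untreated SK-N-AS was 29.5, 23.2, 24.1 and 25.9 CPM in replicates 1 to 4. It was 134, 124, 136 and 137 CPM in S1D4, 226, 238, 225 and 112 CPM in S2D4, and 74.6, 86.1, 81.0 and 70.8 CPM in S2D30. Every treated library of SK-N-AS lay above every untreated library, and in S2D4 replicate 4 was the low one. The change from untreated cells was 5.19-fold in S1D4 (log2 fold change 2.38, SE 0.18, adjusted p = 6.32e-08, edgeR quasi-likelihood test with Benjamini-Hochberg adjustment, as for each adjusted p below). It was 7.78-fold in S2D4 (2.96, SE 0.18, adjusted p = 6.22e-10) and 3.08-fold in S2D30 (1.62, SE 0.17, adjusted p = 2.72e-07). Without S2D4 replicate 4 the S2D4 log2 fold change was 3.16. These comparisons share the untreated libraries. The later step, S2D30 against S2D4, was a fall (log2 fold change -1.34, SE 0.17, adjusted p = 5.93e-06), or -1.54 without S2D4 replicate 4. As these are bulk samples, a change in the share of expressing cells and a change in RNA per cell cannot be told apart here or for any other member.

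In GIMEN PRRX1 was at 185, 178 and 186 CPM untreated and at 60.4, 143 and 134 CPM at D30. All treated libraries lay below all untreated ones, and D30 replicate 1 was the low one. The fall of 0.71 on the log2 scale (SE 0.23, adjusted p = 0.0185) was lost with the DESeq2 test (adjusted p = 0.1) and without untreated replicate 1 (adjusted p = 0.051). Without D30 replicate 1 it was 0.39 on the log2 scale (log2 fold change -0.39, adjusted p = 0.000123). Untreated SK-N-AS had 7.18-fold less PRRX1 than untreated GIMEN (log2 fold change -2.84, SE 0.20, adjusted p = 1.2e-09). In S2D4 replicates 1 to 3 lay above every untreated GIMEN library, and replicate 4 lay below all of them.

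TWIST1 and TWIST2, close relatives that pair with E proteins on E-boxes, went in opposite directions in SK-N-AS. TWIST2 was at 9.16, 8.23, 10.4 and 6.39 CPM in untreated cells, 16.4, 14.1, 23.4 and 24.2 CPM in S1D4, 146, 149, 151 and 101 CPM in S2D4, and 34, 43.8, 44.6 and 31.9 CPM in S2D30. Each of these groups lay apart from the untreated group, and S2D4 lay above all other groups of the study. TWIST2 rose 2.30-fold in S1D4 (log2 fold change 1.2, SE 0.20, adjusted p = 0.000146) and 16-fold in S2D4 (4.00, SE 0.21, adjusted p = 1.26e-10), or by 4.13 on the log2 scale without S2D4 replicate 4. In S2D30 it was 4.58-fold above untreated cells (2.20, SE 0.20, adjusted p = 3.8e-08), after a fall from S2D4 (log2 fold change -1.81, SE 0.19, adjusted p = 7.7e-07). Without S2D4 replicate 4 the log2 fold change of that fall was -1.93.

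TWIST1 was at 123, 114, 105 and 97.7 CPM in untreated SK-N-AS and at 55.6, 55.3, 64.2 and 60.3 CPM in S1D4. It was at 49.6, 60.5, 51.4 and 68.3 CPM in S2D4 and at 84.7, 93.6, 89.1 and 66.4 CPM in S2D30. All treated libraries were below all untreated ones, with S2D30 the nearest. TWIST1 fell by 0.90 on the log2 scale in S1D4 (SE 0.12, adjusted p = 1.9e-05), by 0.94 in S2D4 (SE 0.12, adjusted p = 3.19e-06) and by 0.38 in S2D30 (SE 0.12, adjusted p = 0.00804). Between S2D4 and S2D30 it rose (0.56, SE 0.12, adjusted p = 0.000832). The libraries overlapped only through S2D4 replicate 4 at 68.3 CPM and S2D30 replicate 4 at 66.4 CPM.

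The count of TWIST2 per count of TWIST1 in the same library does not depend on how libraries are scaled. It was 0.0778 ± 0.0147 in SK-N-AS before treatment, 0.329 ± 0.0662 in S1D4, 2.46 ± 0.689 in S2D4 and 0.462 ± 0.0430 in S2D30 (SD, n = 4 each). Counts of TWIST2, not corrected for transcript length, exceeded those of TWIST1 in each of the 4 S2D4 libraries and in no library of another group, and S2D4 replicate 4 was the lowest of the 4 at 1.48. Without it the S2D4 ratio was 2.78 ± 0.282 (SD, n = 3). In GIMEN the ratio was 0.548 ± 0.0301 untreated and 0.689 ± 0.0167 at D30 (SD, n = 3 each). TWIST1 in GIMEN was at 75.2, 77.0 and 74.7 CPM untreated and 50.1, 52.9 and 45.1 CPM at D30, a fall of 0.62 on the log2 scale (SE 0.07, adjusted p = 7.23e-06). TWIST2 there was at 38.6, 43.9 and 41.8 CPM untreated and 35.4, 35.7 and 30.8 CPM at D30, a fall of 0.29 (SE 0.08, adjusted p = 0.00656).

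SNAI1 was lower than in untreated cells at each SK-N-AS stage, with no called change between successive stages after S1D4. Its relative SNAI2 first fell and then rose. SNAI1 was at 30.7, 20.6, 24.5 and 17.1 CPM in untreated cells, 4.16, 3.94, 3.75 and 4.79 CPM in S1D4, and 6.03, 5.59, 4.69 and 5.30 CPM in S2D30. In S2D4 it was at 3.98, 4.19 and 4.20 CPM in replicates 1 to 3 and at 17.9 CPM in replicate 4, which lay inside the untreated range. The log2 fold change was -2.47 in S1D4 (SE 0.40, adjusted p = 0.000125), -1.59 in S2D4 (SE 0.38, adjusted p = 0.00155) and -2.08 in S2D30 (SE 0.39, adjusted p = 0.000147). Without replicate 4 the S2D4 value was -2.49 (adjusted p = 1.81e-09).

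SNAI2 was at 6.23, 5.20, 2.92 and 3.42 CPM in untreated SK-N-AS and at 1.24, 1.62, 1.18 and 1.42 CPM in S1D4, lower in each library (log2 fold change -1.70, SE 0.43, adjusted p = 0.00506). In S2D4 it was at 19.3, 18.8 and 16.5 CPM in replicates 1 to 3 and at 3.24 CPM in replicate 4, again inside the untreated range. S2D30 had 29, 32.9, 32.2 and 22.2 CPM, above every untreated library. SNAI2 rose 3.21-fold from untreated cells to S2D4 (log2 fold change 1.68, SE 0.39, adjusted p = 0.00116), or by 2.02 on the log2 scale without replicate 4. From untreated cells to S2D30 it rose 6.59-fold (2.72, SE 0.39, adjusted p = 1.01e-05). From S1D4 to S2D4 it rose 10.5-fold (3.39, SE 0.44, adjusted p = 6.68e-06), or by 3.73 on the log2 scale without S2D4 replicate 4. A further rise from S2D4 to S2D30 (1.04, SE 0.37, adjusted p = 0.0263) was lost without S2D30 replicate 2 (adjusted p = 0.0608) or replicate 3 (adjusted p = 0.058), and was lost with only these groups in the model (adjusted p = 0.0736). Without S2D4 replicate 4 the rise was 0.70 and still passed the test.

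SNAI2 counts per SNAI1 count were 0.203, 0.253, 0.119 and 0.200 in the untreated SK-N-AS libraries and 0.330 ± 0.0550 in S1D4 (SD, n = 4). They were 4.85, 4.49, 3.92 and 0.181 in S2D4 and 5.44 ± 1.18 in S2D30 (SD, n = 4). Counts of SNAI1 exceeded those of SNAI2 in untreated cells, in S1D4 and in S2D4 replicate 4, and counts of SNAI2 exceeded those of SNAI1 in S2D30 and in the other 3 S2D4 libraries. What sets replicate 4 apart was not tested. In GIMEN the ratio was 23.7 to 36.2 in the untreated libraries.

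Both SNAI genes fell in GIMEN. SNAI2 was at 86.4, 88.3 and 93.7 CPM untreated and at 9.88, 12.8 and 9.64 CPM at D30, a fall of 3.06 on the log2 scale (SE 0.10, adjusted p = 3.32e-10). SNAI1 was at 3.64, 3.59 and 2.59 CPM untreated, and the D30 libraries had 0, 0 and 1 counts of it. Against the floor of 3 counts per library, which covers counting error only, SNAI1 was at least 17.5-fold lower at D30 (adjusted p = 9.69e-07).

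ZEB2 rose steadily through the SK-N-AS treatment, while ZEB1 did not pass the test against untreated cells at any stage. ZEB2 was at 33.3, 31.4, 31.1 and 44.9 CPM in untreated cells, 48.1, 47.0, 48.7 and 52.2 CPM in S1D4, 98.4, 89.2, 86.6 and 70.5 CPM in S2D4, and 200.4, 195, 183 and 213 CPM in S2D30. No 2 of these groups overlapped. The rise from untreated cells was 1.39-fold in S1D4 (log2 fold change 0.48, SE 0.12, adjusted p = 0.00422), 2.44-fold in S2D4 (1.28, SE 0.12, adjusted p = 1.03e-07) and 5.67-fold in S2D30 (2.50, SE 0.12, adjusted p = 2.57e-11). From S2D4 to S2D30 ZEB2 gained a further 1.22 on the log2 scale (SE 0.12, adjusted p = 3.55e-07), the step at which PRRX1, TWIST2, ZEB1, SIX4 and TBX18 fell.

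ZEB1 was at 34.8, 31.4, 42.7 and 58.2 CPM in untreated SK-N-AS and at 40.4, 36.4, 42.0 and 41.8 CPM in S1D4. It was at 54.0, 59.0, 50.2 and 46.7 CPM in S2D4 and at 35.1, 34.8, 33.5 and 37.1 CPM in S2D30. The untreated libraries spread most and overlapped each treated group. Log2 fold changes were -0.06 in S1D4 (95% interval -0.37 to 0.25, adjusted p = 0.794), 0.32 in S2D4 (0.01 to 0.63, adjusted p = 0.0654) and -0.24 in S2D30 (-0.55 to 0.07, adjusted p = 0.156). The S2D4 change passed the test without untreated replicate 4 (0.55, adjusted p = 0.000334) or S2D4 replicate 4 (0.37, adjusted p = 0.0407). It also passed with all libraries and a term that sets replicates 3 and 4 apart in untreated cells and S1D4 only (0.35, adjusted p = 0.0144). The S2D30 change passed without untreated replicate 2 (-0.35, adjusted p = 0.0415). Between S2D4 and S2D30 ZEB1 fell by 0.56 on the log2 scale (SE 0.15, adjusted p = 0.00438).

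ZEB2 counts per ZEB1 count went in SK-N-AS from 0.864 ± 0.135 without treatment to 1.22 ± 0.0584 in S1D4, 1.64 ± 0.157 in S2D4 and 5.63 ± 0.127 in S2D30 (SD, n = 4 each). These counts are not corrected for transcript length, and per kb ZEB1 was still above ZEB2 in S1D4 (6.41 and 5.11 CPM per kb). In GIMEN the ratio was 0.547 ± 0.0233 untreated and 0.428 ± 0.0175 at D30 (SD, n = 3 each). There ZEB1 was at 122, 124 and 121 CPM untreated and 217, 199.5 and 179 CPM at D30, and ZEB2 was at 66.4, 65.2 and 69.3 CPM untreated and 90.6, 83.4 and 80 CPM at D30. ZEB1 rose by 0.69 on the log2 scale (SE 0.07, adjusted p = 3.86e-06) and ZEB2 by 0.33 (SE 0.06, adjusted p = 0.000579), the only rises among the 9 members in GIMEN. In GENCODE v29 4.23% of the exon bases of ZEB1 and 5.18% of those of ZEB2 lie under other genes, among them their antisense partners, as do 6.94% of those of TWIST1. Without a stated strand such reads cannot be assigned.

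**Figure D2:**
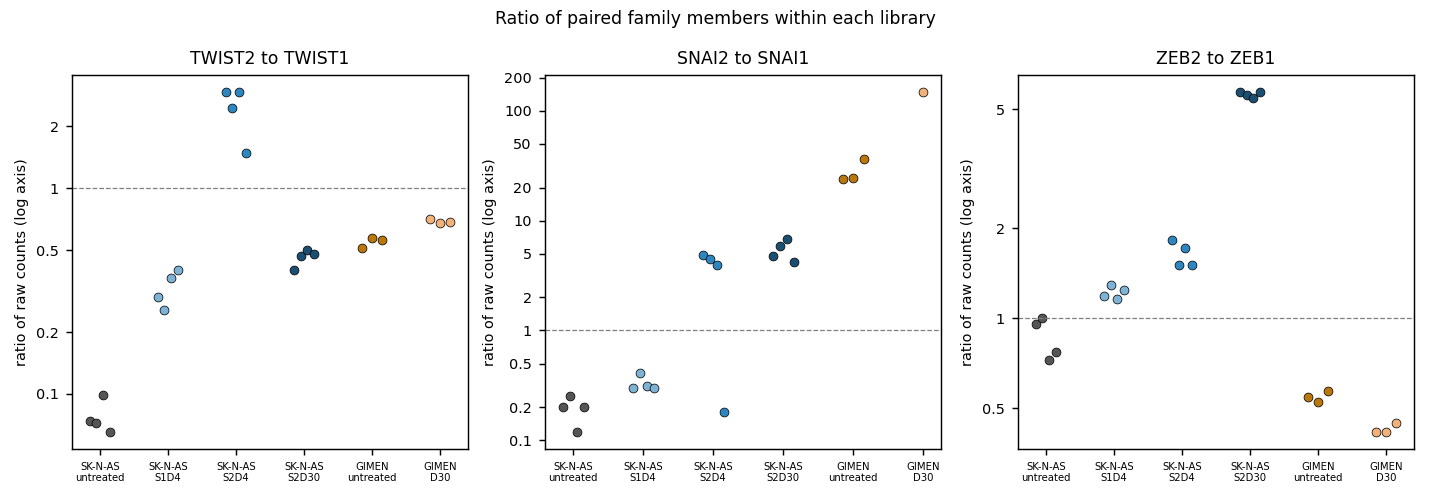
Ratio of raw counts within each library, not corrected for transcript length (vertical log axis), for TWIST2 to TWIST1, SNAI2 to SNAI1 and ZEB2 to ZEB1 in the 6 groups (horizontal axis), each point a library and the dashed line a ratio of 1. S2D4 is the only group above 1 for TWIST, S2D4 replicate 4 lies at 0.181 for SNAI, the ZEB ratio reaches 5.63 in S2D30, and the GIMEN D30 libraries with no SNAI1 count have no SNAI point. The GIMEN D30 SNAI point at 150 rests on 1 SNAI1 count.

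SIX4 and TBX18 were both lower in untreated SK-N-AS than in untreated GIMEN. SIX4 was at 0.792, 1.17, 0.632 and 1.11 CPM in untreated SK-N-AS (13 to 37 counts per library) and at 46.3, 47.2 and 45.5 CPM in untreated GIMEN. The lines differed 49.9-fold (log2 fold change of SK-N-AS over GIMEN -5.64, SE 0.15, adjusted p = 4.9e-15), the widest difference among the members. SIX4 was at 1.64, 1.53, 1.26 and 0.843 CPM in S1D4, 5.55, 4.68, 3.64 and 2.31 CPM in S2D4, and 1.51, 2.15, 2.13 and 1.75 CPM in S2D30. S1D4 overlapped the untreated libraries (log2 fold change 0.51, 95% interval -0.15 to 1.16, adjusted p = 0.214). S2D4 lay above all of them (2.10, SE 0.30, adjusted p = 1.52e-05), as did S2D30 (1.03, SE 0.31, adjusted p = 0.00694). Without S2D4 replicate 4 the S2D4 value was 2.30. In GIMEN at D30 SIX4 was at 41.9, 43.8 and 40.1 CPM, below each untreated library, and the change did not pass the test (-0.15, 95% interval -0.29 to -0.01, adjusted p = 0.0589). It passed without D30 replicate 2 (adjusted p = 0.0349).

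TBX18 was at 28.1, 26.4, 26.2 and 36.2 CPM in untreated SK-N-AS and at 24.2, 21.0, 32.5 and 34.9 CPM in S1D4. S2D4 had 33.0, 35.1, 32.2 and 33.2 CPM and S2D30 had 11.4, 12.8, 13.8 and 11.5 CPM. S2D30 alone was clear of the untreated libraries, below all of them (log2 fold change -1.23, SE 0.15, adjusted p = 1.47e-06). The changes in S1D4 (-0.05, 95% interval -0.36 to 0.25, adjusted p = 0.802) and S2D4 (0.18, 95% interval -0.12 to 0.49, adjusted p = 0.279) did not pass. In GIMEN TBX18 was at 123, 116 and 119 CPM untreated and at 46.5, 43.0 and 42.9 CPM at D30, a fall of 1.44 on the log2 scale (SE 0.06, adjusted p = 3.28e-09). Untreated SK-N-AS had 4.11-fold less TBX18 than untreated GIMEN (log2 fold change -2.04, SE 0.10, adjusted p = 1.61e-11). TBX18 fell in both lines at 30 days, and the difference of the changes was 0.19 (95% interval -0.13 to 0.52, adjusted p = 0.312). That difference passed without untreated SK-N-AS replicate 4 (0.31, adjusted p = 0.0196).

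Counted over the 9 members, S1D4 had 3 higher (PRRX1, TWIST2 and ZEB2) and 3 lower (SNAI1, SNAI2 and TWIST1), where 40.1% of all genes tested were called (17.6% higher and 22.4% lower). S2D4 had 5 higher and 2 lower, where 63.1% of all genes were called (30.9% higher and 32.2% lower), and S2D30 had 5 higher and 3 lower, where 70.3% were called (33.8% higher and 36.5% lower). The shares of members called, 6, 7 and 8 of 9, lay above these backgrounds, but by few genes, and that was not tested. As the members were chosen with earlier results of these data known, no conclusion is drawn from this. The median log2 fold change of the members was 1.28 in S2D4, beside -0.02 over all genes tested, and 1.03 in S2D30, beside -0.03. In S1D4 it was -0.05, beside -0.01. From S1D4 to S2D4, 6 members rose and the other 3 did not pass the test, where 55.1% of all genes were called (28.3% higher and 26.8% lower). SNAI1 was among those 3 (log2 fold change 0.88, adjusted p = 0.0663), and without S2D4 replicate 4 its value was -0.02. The rise of ZEB1 at that step (0.38, adjusted p = 0.038) was lost without any 1 of 7 libraries and with upper-quartile scaling (0.28, adjusted p = 0.115). From S2D4 to S2D30, 3 members rose and 5 fell, where 51.3% of all genes were called (24.4% higher and 26.9% lower).

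**Figure D3:**
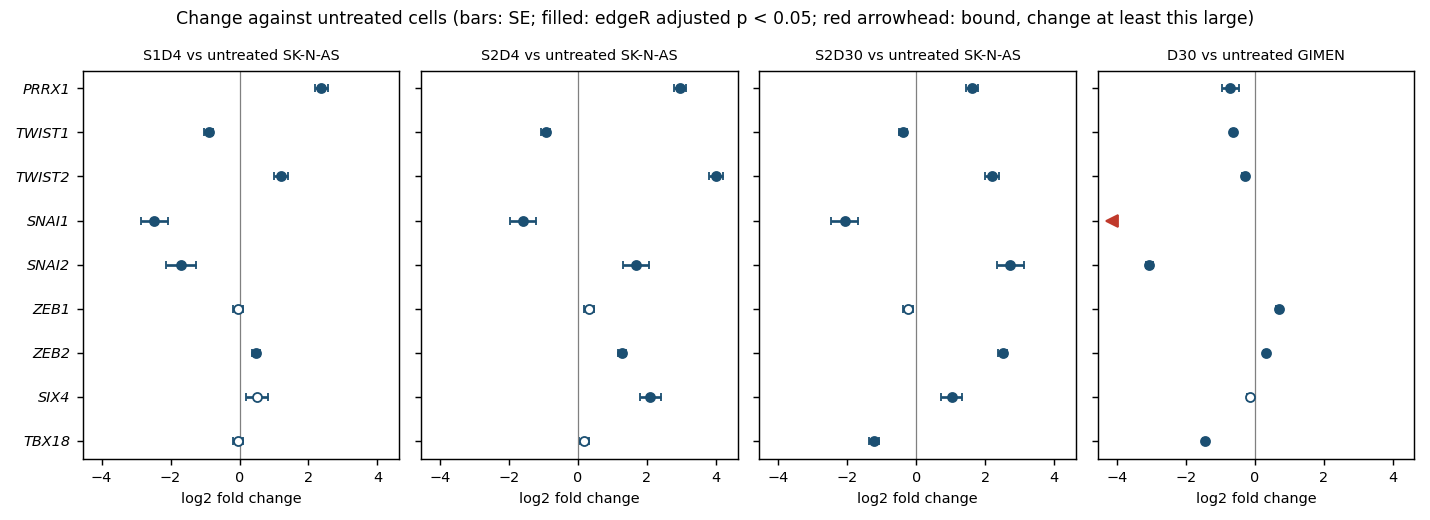
Log2 fold change (horizontal axis) of each of the 9 factors (vertical axis) against untreated cells of the same line, for 3 SK-N-AS stages and GIMEN D30, with bars for the SE and filled points for an adjusted p under 0.05. SNAI2 passes from below 0 in S1D4 to 2.72 in S2D30 and lies at -3.06 in GIMEN, where the arrowhead for SNAI1 is the bound of at least 17.5-fold.

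The direction of the 30-day change differed between the lines for several factors. In GIMEN 2 members rose and 6 fell, where 71.4% of all genes tested were called (35.5% higher and 36% lower), and the members' median was -0.62 beside 0.02 over all genes. The difference of the 30-day change, SK-N-AS minus GIMEN, was tested as an interaction and was called for 7 members, 6 of them higher in SK-N-AS, where 49.7% of all genes were called (24.5% higher and 25.2% lower). It was widest for SNAI2 (5.75, SE 0.28, adjusted p = 1.07e-10), which rose in SK-N-AS and fell in GIMEN. PRRX1 (2.31, SE 0.28, adjusted p = 3.96e-06) and TWIST2 (2.47, SE 0.21, adjusted p = 5.56e-08) had the same opposite directions. ZEB2 rose in both lines and more in SK-N-AS (2.15, SE 0.16, adjusted p = 1.03e-08), and ZEB1 rose in GIMEN with a difference of -0.94 (SE 0.21, adjusted p = 0.00137). SIX4 also differed (1.15, SE 0.22, adjusted p = 0.000318). SNAI1 fell in both lines, and its fitted difference (adjusted p = 4.53e-05) rests on a GIMEN group at the floor. The difference was not called for TWIST1 (0.22, 95% interval -0.10 to 0.54, adjusted p = 0.246), although it passed without S2D30 replicate 4 (adjusted p = 0.0498).

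Before treatment all 9 members differed between the lines, where 73.9% of all genes tested were called (38.6% higher and 35.3% lower in SK-N-AS). SNAI1 was 7.0-fold higher in SK-N-AS (log2 fold change 2.81, SE 0.21, adjusted p = 2.62e-09) and TWIST1 1.44-fold higher (0.53, SE 0.11, adjusted p = 0.00029). The other 7 were lower in SK-N-AS, among them SNAI2 (log2 fold change -4.32, SE 0.20, adjusted p = 4.02e-12), and their log2 fold changes ranged from -0.94 for ZEB2 to -5.64 for SIX4. The median of all 9 was -2.04, beside 0.05 over all genes. In S2D30 SNAI2 remained below every untreated GIMEN library, and TWIST2 overlapped them.

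Other genes around these factors were described by lists. In S2D4 replicate 4 also stood apart for some of these genes, and its values are given beside them. Of 20 other regulators tied to the mesenchymal state, 18 were tested in SK-N-AS. In S1D4 8 rose and 1 fell, where 17.6% of all genes were called higher and 22.4% lower. In S2D4 14 rose and 1 fell, where the shares were 30.9% and 32.2%, and in S2D30 15 rose and 2 fell, where they were 33.8% and 36.5%. The list's medians were 0.65, 2.55 and 2.24 on the log2 scale, beside -0.01, -0.02 and -0.03 over all genes. FOSL2, an AP-1 subunit, rose by 1.94 in S1D4 (SE 0.15, adjusted p = 1.16e-07) and by 3.62 in S2D4 (SE 0.16, adjusted p = 1.85e-11). Replicate 4 of S2D4 had 320 CPM of FOSL2 where the others of its group had 198 to 223 CPM, and the rise without it was 3.44. RUNX1, a runt-domain factor, went from 4.15 to 68.2 CPM in S2D4, a rise of 4.02 (SE 0.21, adjusted p = 1.54e-10). S2D4 replicate 4 had 40.5 CPM of RUNX1 where the other 3 had 73.2 to 82.4 CPM, and the rise without it was 4.20. FOXC2, a forkhead factor of mesenchyme, went from 0.0574 CPM in untreated cells to 6.77 CPM in S2D30. ID1, which blocks basic helix-loop-helix proteins such as TWIST1, fell by 2.21 in S1D4 (SE 0.29, adjusted p = 1.79e-05) and by 2.19 in S2D4 (SE 0.29, adjusted p = 5.23e-06). In GIMEN 6 of 16 tested regulators rose and 9 fell (median -0.40, beside 0.02), where 35.5% of all genes were called higher and 36% lower. There FOSL1, an AP-1 subunit, fell by 1.86 (SE 0.13, adjusted p = 1.68e-07), and SOX9 rose by 0.80 (SE 0.06, adjusted p = 4.47e-07).

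Structural genes of mesenchymal cells moved in both directions in SK-N-AS. Of 21 tested in SK-N-AS, 3 rose and 6 fell in S1D4, 7 rose and 9 fell in S2D4, and 6 rose and 12 fell in S2D30, where 40.1%, 63.1% and 70.3% of all genes were called. The medians were 0.09, 0.23 and -1.01, beside -0.01, -0.02 and -0.03 over all genes. TNC, an extracellular matrix glycoprotein, went from 19.9 CPM in untreated SK-N-AS to a mean of 840 CPM in S2D4 (log2 fold change 5.39, SE 0.64, adjusted p = 1.79e-06). S2D4 replicate 4 had 57.3 CPM of TNC where the other 3 had 1028 to 1205 CPM, and without it the log2 fold change was 5.78 (SE 0.26, adjusted p = 9.57e-12). CD44, a hyaluronan receptor, went from 8.98 to 204 CPM in S2D30 (4.52, SE 0.27, adjusted p = 2.77e-10). COL1A1, a chain of type I collagen, fell by 2.60 in S1D4 (SE 0.18, adjusted p = 3.5e-08), and THY1, a surface glycoprotein, fell from 83.9 to 0.840 CPM in S2D30. POSTN was at least 40.8-fold lower in S2D30, where its 4 libraries held 3 counts in all. In GIMEN 3 of 20 rose and 17 fell (median -1.09, beside 0.02 over all genes), where 35.5% of all genes were called higher and 36% lower. TNC rose there too (3.29, SE 0.10, adjusted p = 1.48e-10), and TAGLN, an actin-binding protein, fell from 171 to 3.36 CPM.

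Genes of epithelial cells and junctions, which the SNAI and ZEB proteins repress in other settings, were in part too low to test: of 24, 14 passed the filter in SK-N-AS and 7 in GIMEN. In SK-N-AS 4 rose in S1D4, 2 rose and 2 fell in S2D4, and 2 rose and 3 fell in S2D30, beside 40.1%, 63.1% and 70.3% of all genes called. The medians were 0.68, -0.36 and -0.02, beside -0.01, -0.02 and -0.03 over all genes. In S2D4 and S2D30, 4 and 5 of 14 called was below the share of all genes. Several of the 14, among them CDH1, ELF3, ESRP2 and MARVELD2, were below 1 CPM in untreated cells. At such levels few changes can be called, so the lower share does not show that these genes changed less. CLDN1, a tight junction protein, went from 0.0372 to 5.44 CPM in S2D30, and CLDN4 went from 21.9 to 39.1 CPM in S1D4 (0.84, SE 0.21, adjusted p = 0.00377). In GIMEN 3 of 7 rose and 1 fell, where 71.4% of all genes were called. The gene that fell was KRT18, a keratin of simple epithelia, which went from 189 to 55.9 CPM (-1.76, SE 0.11, adjusted p = 5.83e-08).

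Partners and regulators of the 9 proteins moved in both directions. Of 25 tested, 5 rose and 10 fell in S1D4, 9 rose and 11 fell in S2D4, 5 rose and 13 fell in S2D30, and 6 rose and 14 fell in GIMEN. All genes were called at 40.1%, 63.1%, 70.3% and 71.4% in these comparisons, so 15, 20, 18 and 20 of 25 are counts to be read against a high background. The list's medians were -0.15, -0.25, -0.41 and -0.21, beside -0.01, -0.02, -0.03 and 0.02 over all genes. The ID proteins moved apart in SK-N-AS: ID4 went from 1.07 CPM in untreated cells to 7.53, 25.8 and 44.5 CPM in S1D4, S2D4 and S2D30, while ID3 went from 85.1 to 35.3 and 19.6 CPM in S1D4 and S2D4. Without S2D4 replicate 4, which had 9.55 CPM of ID4 and 34.6 CPM of ID3, the S2D4 means were 31.2 and 14.7 CPM. EZH2, the methyltransferase of a Polycomb complex, fell by 2.77 in S2D30 (log2 fold change -2.77, SE 0.14, adjusted p = 2.7e-11) and by 3.27 in GIMEN (SE 0.08, adjusted p = 5.33e-11). EYA1, a cofactor of the SIX4 family, went from 51.2 to 8.21 CPM in S2D30. Among 14 paralogs tested in SK-N-AS, 1 rose and 8 fell in S2D30, where 70.3% of all genes were called, a share above the 9 of 14 here. TBX3 rose to 297 CPM from 75.8 (1.99, SE 0.12, adjusted p = 1.8e-10), and PRRX2, the paralog of PRRX1, fell from 24.9 to 0.824 CPM (-4.89, SE 0.24, adjusted p = 2.8e-11).

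**Figure D4:**
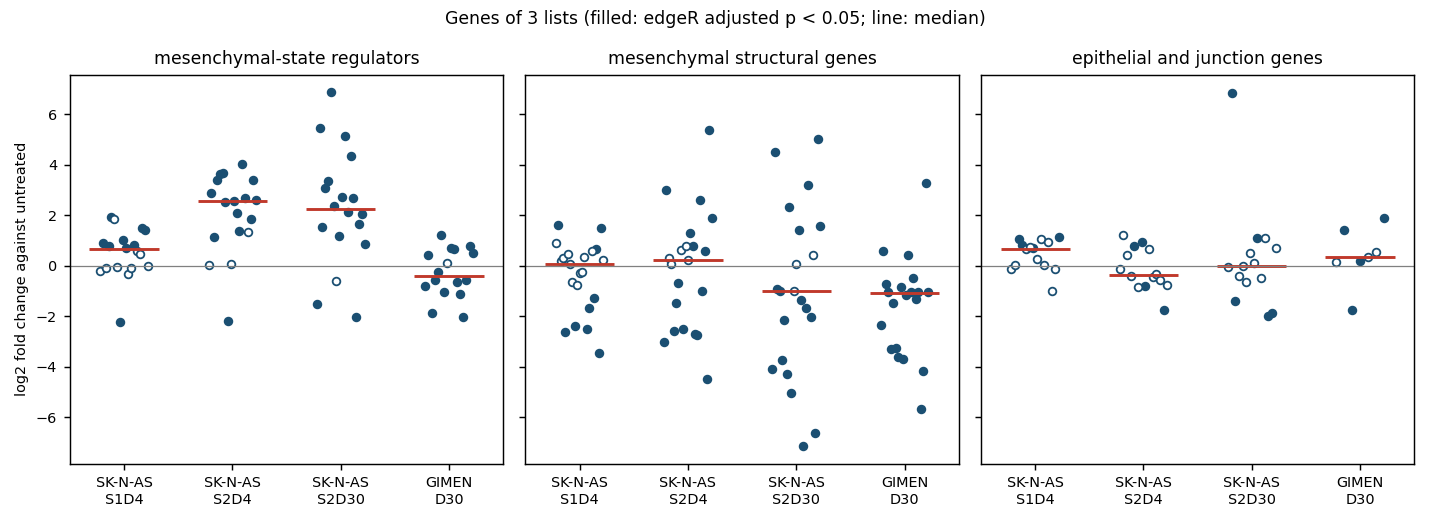
Log2 fold change against untreated cells (vertical axis) of each tested gene of the regulator, structural and junction lists in the 3 SK-N-AS stages and GIMEN D30 (horizontal axis), each point a gene, filled where the adjusted p is under 0.05, and each red line the list's median; fitted values of genes with hardly a count in 1 group, such as POSTN in S2D30, depend on the prior count. The regulators' median reaches 2.55 in S2D4, and that of the structural genes is -1.01 in S2D30 and -1.09 in GIMEN.

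Among the members themselves, levels over the 16 SK-N-AS libraries were most alike for TWIST2 and SIX4 (Pearson r = 0.880 of log2 CPM), PRRX1 and TWIST2 (0.806), and SNAI2 and ZEB2 (0.803). The most opposed were PRRX1 and TWIST1 (-0.910). Over 11492 genes with a mean of at least 5 CPM, the gene most like PRRX1 was NOMO1 (0.983), followed by DUSP6 (0.970), a phosphatase induced by ERK signalling. For TWIST2 it was ABL1 (0.984), for ZEB2 MCFD2 (0.990), for SNAI2 CDK14 (0.971), for SNAI1 NONO (0.949), for TBX18 SPRY1 (0.967), for SIX4 ADARB1 (0.947), for TWIST1 RAB32 (0.923) and for ZEB1 EPT1 (0.916). For TWIST1 the third in this order was ID1 (0.912). These values describe libraries that fall into 4 treatment groups and share their scaling, and they carry no test.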

How the data were processed

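Total RNA was sequenced by the authors on an Illumina HiSeq X in paired-end mode, per the labels' protocols. The deposited values are raw counts, whole numbers in rows named by gene symbol, with 1 column per sample and no unused column (0). The aligner, counting tool, build, annotation and strand setting are not given in the sources used here. Changes were fitted to these counts with edgeR 4.0.16 under R 4.3.3: filterByExpr (minimum count 10, minimum total 15), scaling by trimmed mean of M-values (TMM), and the quasi-likelihood test, with Benjamini-Hochberg adjustment over all genes and a threshold of 0.05. One model held the 16 SK-N-AS libraries (15810 genes), another the 6 GIMEN libraries (13517 genes), and a further one the 14 untreated and 30-day libraries of both lines (16246 genes). All 9 members passed each filter. Printed CPM use 1 TMM scaling of all 22 libraries, while tests scale within their model. Total counts per library, 16456484 to 37506800, set the precision. Reads carried no molecular identifiers.

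Lengths are those of the longest coding GENCODE v29 transcript, and no member shared more than 0.122% of its 75-base words with other genes. Likeness to other genes was measured on log2 CPM (prior count 2). From each other list at most the 2 largest called rises and falls per comparison with untreated cells, at a mean of at least 1 CPM, could be named, and the 3 most alike genes per member. A list of antisense RNA genes and microRNA hosts had 0 of its 7 symbols in the table. The members and lists were chosen with earlier results of these data known. Another marker of the adrenergic list is not reported here. The code was tested on simulated data. Alternatives were DESeq2 1.42.0 size factors, the DESeq2 test, upper-quartile factors, other count filters, a replicate block, a term for replicates 3 and 4 of untreated SK-N-AS and S1D4, smaller or larger models, and leaving out each library.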

Additional observations from a re-analysis of the deposited data

Results flagged for a closer look

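In SK-N-AS groups of 4 libraries, 4 of 36 combinations of member and group had 1 library far from the other 3, where chance gives about 1 in 20. The same library recurs among them, so the combinations are not independent and no excess is read from this. In S2D4 replicate 4 was that library for PRRX1 at 112 CPM (the other 3 at 225 to 238), for SNAI1 at 17.9 CPM (3.98 to 4.20) and for TWIST2 at 101 CPM (146 to 151). In untreated cells replicate 4 was that library for ZEB2 at 44.9 CPM. S2D4 replicate 4 was also the lowest of its group for SNAI2, ZEB1, ZEB2 and SIX4.

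The 30-day change differed between the lines for 7 members by the interaction test, as SK-N-AS minus GIMEN on the log2 scale. The difference was 5.75 for SNAI2, 2.47 for TWIST2, 2.31 for PRRX1, 2.15 for ZEB2, 1.15 for SIX4 and -0.94 for ZEB1. For SNAI1 the fitted difference was 4.86, which depends on the prior count because 2 of the 3 treated GIMEN libraries had 0 counts and the other had 1. SNAI2, PRRX1 and TWIST2 rose in SK-N-AS and fell in GIMEN. Doses, media and schedule differed between the lines and cannot be told apart from the line.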

How the results depend on the processing

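Counts of members called stayed within 1.5 times of those reported under every alternative run. Leaving out each library in turn gave 6 of 9 for S1D4, 7 to 8 for S2D4, 8 to 9 for S2D30, 5 to 6 from S1D4 to S2D4, 7 to 8 from S2D4 to S2D30, 7 to 9 in GIMEN, 9 between untreated lines and 7 to 8 for the difference of the 30-day change. Of 72 member changes 59 were called. Of their 1143 values under alternatives 1111 kept direction and side of the threshold, 13 lost a call, 10 gained one and 9 changed sign, with no called change among the 9. The lost calls concerned 3 changes, those of ZEB1 from S1D4 to S2D4, SNAI2 from S2D4 to S2D30 and PRRX1 in GIMEN. Sign changes came from leaving out 1 library: the ranges were -0.16 to 0.17 for ZEB1 and -0.17 to 0.086 for TBX18 in S1D4, -0.14 to 0.023 for TWIST1 and -0.022 to 1.09 for SNAI1 from S1D4 to S2D4, and -0.71 to 0.41 for SNAI1 from S2D4 to S2D30. The last 2 turned without S2D4 replicate 4. Without that library the 21 structural genes had 9 higher and 9 lower in S2D4. The mesenchymal-state regulators then had 15 higher and 1 lower, and the partners and regulators of the proteins 8 higher and 13 lower. With the replicate number as a block, members called were 6 in S1D4, 7 in S2D4, 8 in S2D30 and 8 in GIMEN, and none of 88 results changed its call. Same-numbered libraries did not deviate together throughout: correlations ran from -0.11 to 0.31 over 24 SK-N-AS pairs, 5 of them above 0.1, and from -0.04 to 0.0009 over 3 GIMEN pairs. The highest lay between untreated cells and S1D4, at 0.305, 0.276 and 0.311 for replicates 1, 2 and 4, with 0.033 for replicate 3. Within S1D4, log2 CPM correlated at 0.994 for replicates 1 and 2 and for 3 and 4, and at 0.991 to 0.992 across these pairs. The S1D4 tests without the block treat all these libraries as independent. SIX4 in untreated SK-N-AS rested on 13 to 37 counts per library, which limits its precision.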
